A study of Homo sapiens with 9 samples.

Results

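The 10 genes described here encode subunits of Polycomb repressive complex 2 (PRC2), and they were taken by symbol from the 26364 genes that all 9 count files share. They are EZH1, EZH2, SUZ12, EED, RBBP4, RBBP7, JARID2, AEBP2, MTF2 and PHF19, and all 10 were present and passed the filter on low counts that 14738 genes passed. RNA was sequenced after 48 h of culture from MDA-MB-231 cells, a human line of triple-negative breast cancer. A pLVX lentivirus had been used to make stable lines with MEL-18 T334A, with MEL-18 WT or with the empty vector, so the vector control had also been infected. MEL-18, encoded by PCGF2, belongs to Polycomb repressive complex 1, and the T334A form carries alanine in place of a threonine that can be phosphorylated. Each of the 3 groups held 3 libraries described as biological replicates. The labels do not say whether they came from separate infections, so the p-values cover only how much these cultures varied. The effect of a construct cannot be told apart from other differences between the infected lines.

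Library totals ran from 31643722 to 37005302 counts. PCGF2 stood at 1420, 1451 and 1389 TMM-scaled CPM (the usual share of a library's counts, corrected for composition by TMM) in the MEL-18 T334A libraries, at 1292, 1287 and 1279 CPM in the MEL-18 WT libraries and at 22.2, 23.8 and 22.3 CPM with the empty vector. Markers matched the labelled epithelial cell type only in part. The keratins KRT8 and KRT18 reached 294 to 326 and 248 to 315 CPM, but CDH1, the epithelial cadherin, had 8, 15 and 9 counts over the MEL-18 T334A, MEL-18 WT and vector groups, and the mesenchymal gene VIM stood at 1415 to 1579 CPM (marker CPM without TMM scaling). Other epithelial genes were detected: KRT19 at 80.7 to 122, CLDN4 at 17.9 to 32.7, EPCAM at 7.14 to 12.7 and CLDN7 at 5.76 to 11.9 CPM. Of the other mesenchymal genes, AXL, FN1 and ZEB1 reached 1018, 296 and 78.2 CPM. SNAI2 stood at 7.67 to 10.0 CPM and CDH2 at only 0.264 to 0.748 CPM.

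PRC2 places methyl groups on lysine 27 of histone H3, a mark of silenced developmental genes. EZH2, or its paralog EZH1, is the catalytic subunit and works only together with SUZ12 and EED, while RBBP4 and RBBP7 bind histones. Accessory subunits divide the complex into forms: MTF2 and PHF19 belong to PRC2.1, and JARID2 and AEBP2 to PRC2.2, which binds the ubiquitin mark that PRC1 places on histone H2A. EZH2 is often raised in proliferating and in breast cancer cells, and its gene is a known target of E2F transcription factors.

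Levels of different genes were compared per kilobase of exon (CPM divided by the merged coding-transcript exons of GENCODE release 29). RBBP7 was highest, at 96.2 ± 0.96, 98.0 ± 0.85 and 101 ± 2.66 CPM per kb in the MEL-18 T334A, MEL-18 WT and vector groups (mean ± SD, n = 3 libraries each). SUZ12 followed at 42.0 ± 1.46, 45.5 ± 0.69 and 46.2 ± 1.06 CPM per kb, and EZH2 at 39.9 ± 1.17, 37.8 ± 0.73 and 42.8 ± 0.94 CPM per kb. In MEL-18 T334A cells these SUZ12 and EZH2 levels lay within about their summed SDs of each other. With the vector, PHF19 (25.7 ± 0.51), MTF2 (22.5 ± 0.68), RBBP4 (18.3 ± 0.45) and EED (14.8 ± 0.78 CPM per kb) came next. AEBP2 (7.91 ± 0.13), EZH1 (7.18 ± 0.13) and JARID2 (6.79 ± 0.20 CPM per kb) were lowest. PHF19 and MTF2 stood closest in MEL-18 WT cells, where they had 22.4 ± 0.69 and 22.7 ± 0.23 CPM per kb, a difference within their spread. The order rests on exon lengths of a later annotation, and the one used for counting is not given in the sources used here.

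**Figure D1:**
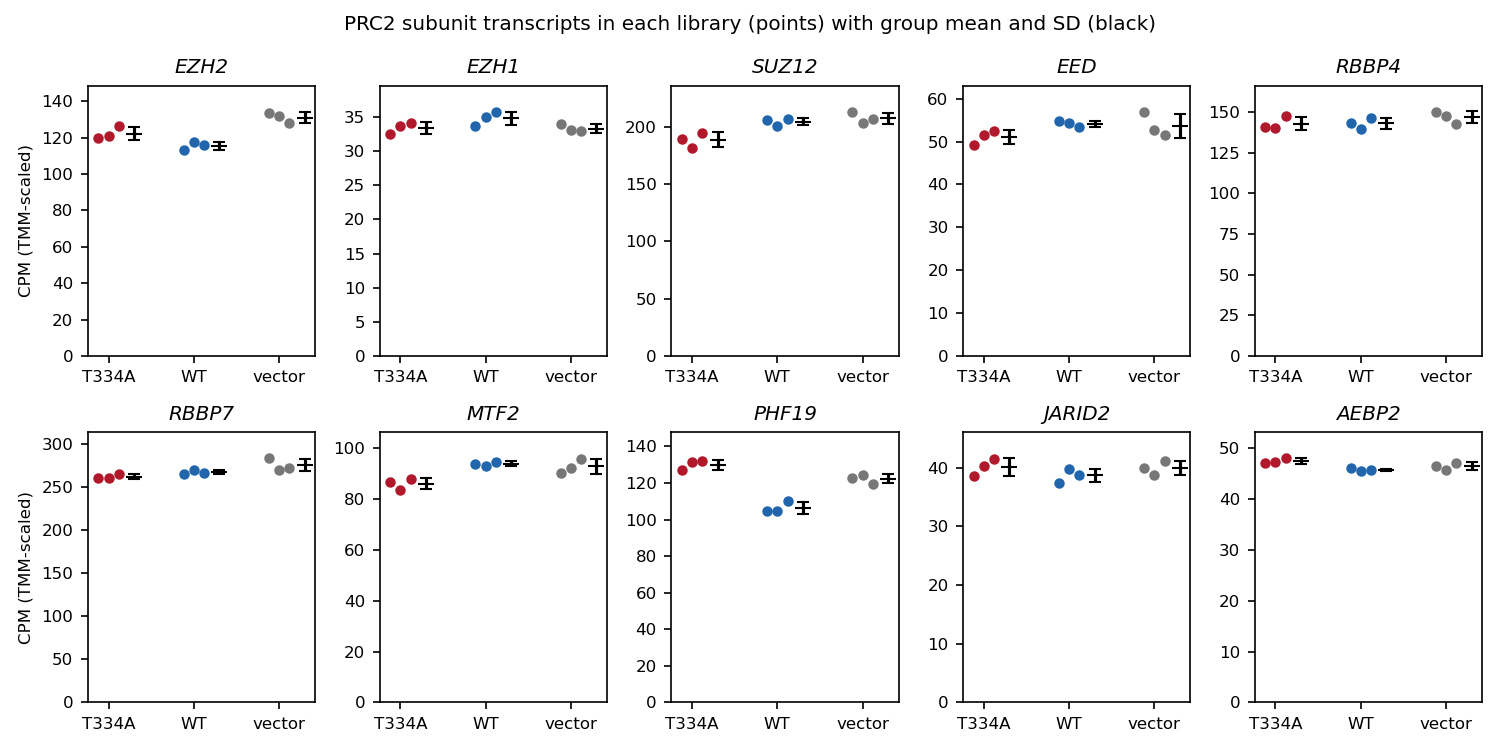
CPM (TMM-scaled, vertical axes from 0) of each PRC2 subunit in the MEL-18 T334A, MEL-18 WT and vector libraries; points are libraries, and black marks are group means with SD, n = 3. PHF19 was lowest in the 3 MEL-18 WT libraries, at 105 to 110 CPM, and EZH2 was highest in the 3 vector libraries, at 128 to 134 CPM.

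Changes of the subunits were small in all 3 comparisons, the largest being 1.22-fold, for PHF19 between MEL-18 T334A and MEL-18 WT. The calls below are from edgeR's quasi-likelihood test on all 9 libraries, at a Benjamini-Hochberg adjusted p below 0.05 over all 14738 genes. Against the vector, MEL-18 T334A had 5 of 10 subunits called, where 45.9% of all tested genes were called. Of the 5, 1 was higher (23.4% of all tested genes) and 4 were lower (22.5%), and the libraries of 5 subunits did not overlap between the groups (51.5% of all tested genes). MEL-18 WT against the vector gave 2 of 10, where 28.8% of all tested genes were called. Both were lower (14.4% of all tested genes) and none was higher (also 14.4%), and 3 subunits did not overlap between the groups (42.7%). Between MEL-18 T334A and MEL-18 WT 4 of 10 were called, where 40.9% of all tested genes were called. Of these, 2 were higher (21.0% of all tested genes) and 2 lower (2944 of all tested genes), and 7 subunits did not overlap between the groups (48.7%). When libraries were scaled by their totals, 64.0% of all called genes were higher in MEL-18 T334A than with the vector, against 51.1% with TMM, and 60.1% were higher in MEL-18 WT than with the vector, against 50.1%. The shares of called subunits lay near those of all genes. The median absolute log2 fold change of the 10 subunits was 0.07, 0.04 and 0.07 in MEL-18 T334A against the vector, MEL-18 WT against the vector and MEL-18 T334A against MEL-18 WT, against 0.14, 0.10 and 0.12 over all tested genes. The tested genes include some with few counts, whose fold changes are less precise than those of the subunits. No set of genes of like expression was compared, so these medians do not show that the subunits changed less. The 2 comparisons with the vector share its libraries. In bulk RNA, fewer cells of a kind and less RNA per cell cannot be told apart.

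**Figure D2:**
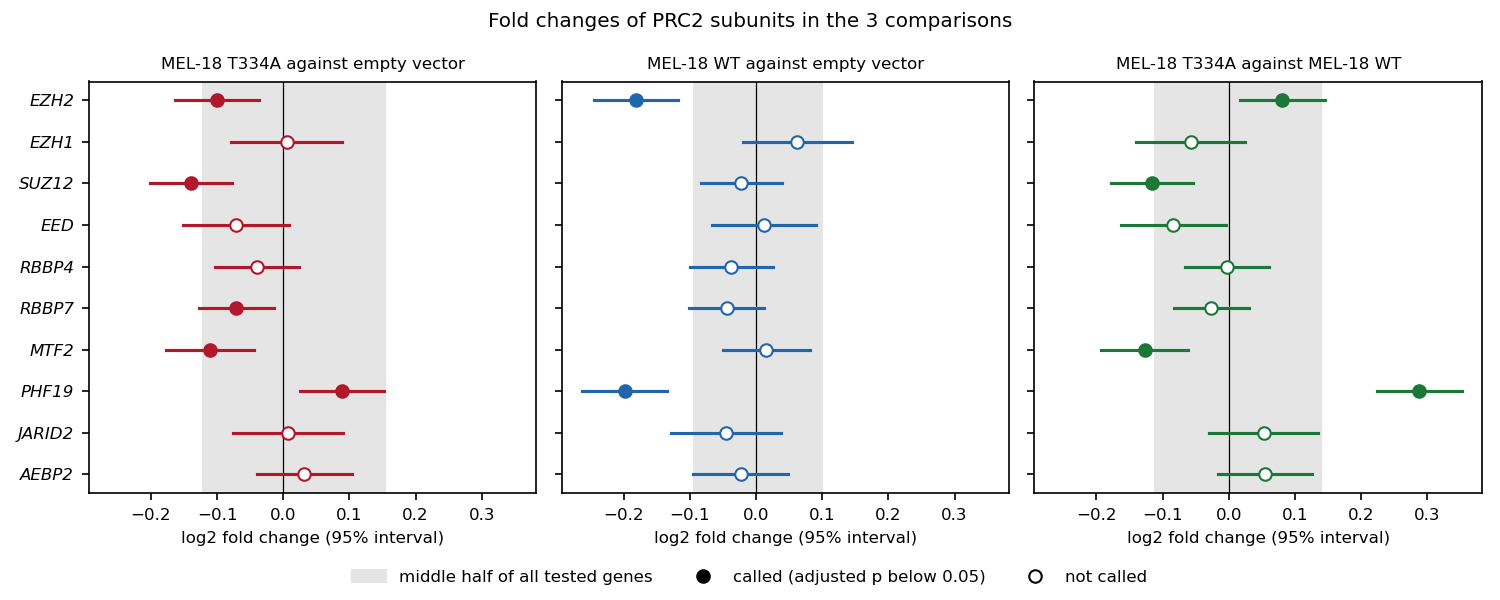
Log2 fold change of each subunit with its 95% interval (horizontal) in the 3 comparisons; filled points were called at an adjusted p below 0.05, and the grey band runs from the lower to the upper quartile of all tested genes. PHF19 stands at 0.29 in MEL-18 T334A against MEL-18 WT and at -0.20 in MEL-18 WT against the vector, both outside the band.

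The replicates allowed small differences to be read. The coefficient of variation of a subunit within a group ran from 0.573% to 5.26%, with a median of 2.39%, on 1032 to 9936 counts per subunit and library.

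Of the catalytic pair, EZH2 was lower with both constructs than with the vector. It had 120, 121 and 126 CPM in the MEL-18 T334A libraries, 113, 118 and 116 CPM in the MEL-18 WT libraries and 134, 132 and 128 CPM with the vector. No library of either MEL-18 group reached the lowest vector library, and the MEL-18 WT libraries lay below all MEL-18 T334A libraries. The log2 fold change against the vector was -0.18 ± 0.03 (SE) in MEL-18 WT (edgeR adjusted p = 5.00e-05), a fall of 11.8% with a 95% interval of the log2 value from -0.24 to -0.12. In MEL-18 T334A it was -0.10 ± 0.03 (edgeR adjusted p = 0.00936). That call was lost without vector replicate 1 (adjusted p = 0.0601), without MEL-18 T334A replicate 1 (adjusted p = 0.0581) and with library totals in place of TMM (adjusted p = 0.0880). MEL-18 T334A stood 0.08 ± 0.03 above MEL-18 WT (edgeR adjusted p = 0.0379). DESeq2 (adjusted p = 0.0600) did not make this call, and it was also lost without the filter (0.0776), without MEL-18 WT replicate 1 (0.161) or 3 (0.0816) and without MEL-18 T334A replicate 3 (0.161).

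EZH1, whose complex is the less active methyltransferase and is common in resting cells, was not called in any comparison. It had 32.5 to 34.1 CPM with MEL-18 T334A, 33.8 to 35.7 CPM with MEL-18 WT and 32.9 to 34.0 CPM with the vector, ranges that overlap. The 95% intervals of its change reached from -5.30% to 6.33% in MEL-18 T334A against the vector, from -1.39% to 10.6% in MEL-18 WT against the vector and from -9.23% to 1.71% between MEL-18 T334A and MEL-18 WT.

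SUZ12, the scaffold that holds the core together, was lower in MEL-18 T334A cells than in both other groups. Its values were 189, 182 and 195 CPM with MEL-18 T334A, 206, 201 and 207 CPM with MEL-18 WT and 213, 203 and 207 CPM with the vector. Every MEL-18 T334A library lay below every other library, while the MEL-18 WT and vector libraries overlapped. MEL-18 T334A differed by -0.14 ± 0.03 from the vector (edgeR adjusted p = 4.51e-04) and by -0.12 ± 0.03 from MEL-18 WT (edgeR adjusted p = 0.00276), and both calls held in each alternative tried. MEL-18 WT against the vector gave -0.02 ± 0.03 (edgeR adjusted p = 0.637), with a 95% interval from -0.08 to 0.04. Reads may be shared with SUZ12P1, an annotated pseudogene copy. SUZ12P1 held 9.00 ± 0.27, 9.13 ± 0.40 and 8.81 ± 0.38 CPM in MEL-18 T334A, MEL-18 WT and vector cells and was not called (edgeR adjusted p of 0.656 to 0.839).

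EED, which reads the methyl mark and stimulates the enzyme, had 49.2, 51.5 and 52.4 CPM with MEL-18 T334A, 54.8, 54.2 and 53.4 CPM with MEL-18 WT and 56.8, 52.6 and 51.5 CPM with the vector. The MEL-18 T334A libraries lay below the MEL-18 WT libraries, and the other pairs of groups overlapped. The difference of -0.08 ± 0.04 between the MEL-18 groups was not called (edgeR adjusted p = 0.0842), though it was without MEL-18 T334A replicate 3 (adjusted p = 0.0385). Against the vector EED differed by -0.07 ± 0.04 in MEL-18 T334A and by 0.01 ± 0.04 in MEL-18 WT cells, neither called.

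RBBP7 and RBBP4, histone chaperones that also serve NuRD, SIN3 and, for RBBP4, the chromatin assembly factor CAF-1, differed little. RBBP7 had 260, 261 and 265 CPM with MEL-18 T334A, 266, 269.7 and 266 CPM with MEL-18 WT and 284, 270.4 and 272 CPM with the vector. On the TMM scale, all libraries of both MEL-18 groups lay below the vector libraries, and MEL-18 T334A lay below MEL-18 WT. The margins were narrow. The nearest MEL-18 WT and vector libraries stood at 269.71 and 270.36 CPM. Between MEL-18 T334A and MEL-18 WT the nearest stood at 265.16 and 265.63 CPM. MEL-18 T334A was called lower than the vector at -0.07 ± 0.03 (edgeR adjusted p = 0.0382). This call was lost with library totals (adjusted p = 0.325), without the filter (0.0586), with the compared groups alone (0.0697), and without vector replicate 1 (0.249), 2 (0.0514) or 3 (0.0709) or MEL-18 T334A replicate 1 (0.113) or 2 (0.110). MEL-18 WT against the vector stood at -0.04 ± 0.03 (edgeR adjusted p = 0.253). RBBP4 ranged from 140 to 147 CPM with MEL-18 T334A, from 140 to 146 CPM with MEL-18 WT and from 143 to 150 CPM with the vector, overlapping throughout, and was not called. The 95% interval of its difference between the MEL-18 groups ran from -0.07 to 0.06.

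Counts of both are uncertain where exons are shared. GENCODE lists 6 pseudogene copies of RBBP4, and 1706 exonic bases of RBBP4 overlap SYNC on the opposite strand, as 179 of RBBP7 overlap TXLNG, while the strand setting of the counting is not given in the sources used here. SYNC held 3.99 ± 0.57, 2.87 ± 0.16 and 2.44 ± 0.55 CPM in MEL-18 T334A, MEL-18 WT and vector cells. It was called higher in MEL-18 T334A cells, at 0.71 ± 0.14 against the vector and 0.47 ± 0.13 against MEL-18 WT (edgeR adjusted p = 1.53e-04 and 0.00534). TXLNG held 67.1 ± 3.77, 74.4 ± 2.09 and 72.9 ± 3.24 CPM and was called lower in MEL-18 T334A cells, at -0.12 ± 0.04 against the vector and -0.15 ± 0.04 against MEL-18 WT (edgeR adjusted p = 0.0140 and 0.00330). The part of TXLNG in the RBBP7 value, and of SYNC in the RBBP4 value, was not tested.

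Of all 10 subunits, PHF19 of PRC2.1 had the widest range of group means, and its paralog MTF2 differed between the MEL-18 groups as well. PHF19, which binds methylated lysine 36 of histone H3 and CpG-rich DNA and brings PRC2 to chromatin, had 127, 131 and 132 CPM in the MEL-18 T334A libraries, 105, 105 and 110 CPM in the MEL-18 WT libraries and 123, 125 and 120 CPM with the vector. The 3 groups were separate, with MEL-18 T334A highest and MEL-18 WT lowest. MEL-18 T334A stood 0.29 ± 0.03 above MEL-18 WT (edgeR adjusted p = 3.52e-08), or 22.1% higher, with a 95% interval of the log2 value from 0.22 to 0.35. A larger absolute change was seen in 18.4% of all tested genes in that comparison. MEL-18 WT stood at -0.20 ± 0.03 against the vector (edgeR adjusted p = 1.74e-05). MEL-18 T334A stood at 0.09 ± 0.03 against the same vector libraries (edgeR adjusted p = 0.0199), a call lost without vector replicate 3 (adjusted p = 0.0726).

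MTF2, a paralog of PHF19 that binds unmethylated CpG-rich DNA, was lower in MEL-18 T334A than in the other groups. It had 86.6, 83.5 and 87.7 CPM with MEL-18 T334A, 93.9, 92.8 and 94.8 CPM with MEL-18 WT and 90.4, 92.2 and 95.9 CPM with the vector. As with SUZ12, every MEL-18 T334A library lay below every other library, and the MEL-18 WT libraries fell within the range of the vector. MEL-18 T334A differed by -0.13 ± 0.03 from MEL-18 WT (edgeR adjusted p = 0.00230) and by -0.11 ± 0.03 from the vector (edgeR adjusted p = 0.00613). The call against the vector was lost without vector replicate 3 (adjusted p = 0.0718), without MEL-18 T334A replicate 2 (0.0561) and with library totals (0.0712). MEL-18 WT against the vector gave 0.02 ± 0.03 (edgeR adjusted p = 0.764).

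The PRC2.2 subunits were not called in any comparison. JARID2, a catalytically inactive Jumonji protein that stimulates PRC2, had 38.5 to 41.5 CPM with MEL-18 T334A, 37.4 to 39.8 CPM with MEL-18 WT and 38.7 to 41.1 CPM with the vector. AEBP2, a zinc finger protein that stabilises the complex, had 47.0 to 48.1 CPM with MEL-18 T334A, 45.4 to 45.9 CPM with MEL-18 WT and 45.6 to 47.1 CPM with the vector. The AEBP2 libraries of the MEL-18 groups did not overlap, at a difference of 0.05 ± 0.03 (edgeR adjusted p = 0.217, 95% interval from -0.02 to 0.13). Its interval against the vector ran from -0.04 to 0.10 in MEL-18 T334A and from -0.09 to 0.05 in MEL-18 WT cells, and that of JARID2 from -0.08 to 0.09 and from -0.13 to 0.04.

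Promoters of the 4 subunits called between the MEL-18 groups are shown because EZH2 and PHF19 were both lower in MEL-18 WT cells, and SUZ12 and MTF2 both lower in MEL-18 T334A cells. Each window runs from 250 bases before to 50 after an annotated start (RefSeq, GRCh38.p14), 5′ to 3′ on the strand of the gene. Capitals mark matches to the E2F motif TTTNNCGC with C or G at each N, or to CCAAT, searched on both strands; no match of one motif overlapped the other in these windows. For EZH2 and PHF19, which have several windows, the window with an E2F match is shown. They lie at chr7:148884242-148884541 (minus strand) for EZH2, chr9:120877139-120877438 (minus strand) for PHF19, chr17:31936757-31937056 (plus strand) for SUZ12 and chr1:93079033-93079332 (plus strand) for MTF2.
EZH2 promoter: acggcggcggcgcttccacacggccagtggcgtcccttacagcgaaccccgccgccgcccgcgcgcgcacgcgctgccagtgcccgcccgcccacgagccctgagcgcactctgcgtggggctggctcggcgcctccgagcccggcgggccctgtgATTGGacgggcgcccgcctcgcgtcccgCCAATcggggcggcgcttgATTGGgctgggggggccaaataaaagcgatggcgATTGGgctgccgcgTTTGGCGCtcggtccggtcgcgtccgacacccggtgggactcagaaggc
PHF19 promoter: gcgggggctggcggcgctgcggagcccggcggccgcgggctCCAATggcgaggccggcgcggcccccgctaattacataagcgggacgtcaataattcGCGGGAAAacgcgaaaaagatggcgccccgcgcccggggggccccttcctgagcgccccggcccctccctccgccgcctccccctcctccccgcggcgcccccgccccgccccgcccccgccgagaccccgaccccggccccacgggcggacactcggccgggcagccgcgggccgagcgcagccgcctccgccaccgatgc
SUZ12 promoter: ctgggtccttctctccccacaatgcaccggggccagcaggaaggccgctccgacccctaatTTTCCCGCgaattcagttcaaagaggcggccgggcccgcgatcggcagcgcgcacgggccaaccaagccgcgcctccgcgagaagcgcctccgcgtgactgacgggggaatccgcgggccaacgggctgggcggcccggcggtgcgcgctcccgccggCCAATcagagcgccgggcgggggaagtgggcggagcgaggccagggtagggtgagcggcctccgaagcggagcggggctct
MTF2 promoter: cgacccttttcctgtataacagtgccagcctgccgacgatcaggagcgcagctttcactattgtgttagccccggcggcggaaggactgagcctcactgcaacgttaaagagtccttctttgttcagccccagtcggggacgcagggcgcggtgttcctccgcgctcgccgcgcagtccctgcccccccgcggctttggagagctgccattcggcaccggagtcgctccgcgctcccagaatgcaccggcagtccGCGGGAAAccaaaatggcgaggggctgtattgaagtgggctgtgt
Each window shown holds 1 E2F match, which lies just after the annotated start in EZH2 and MTF2 and before it in PHF19 and SUZ12. The EZH2 and PHF19 windows were chosen for that match, and the other annotated window of each of these genes holds none. EZH2 also holds 4 CCAAT matches, SUZ12 and PHF19 hold 1 each and MTF2 has none in this window. The E2F letters were found in 6 of the 15 windows of the 10 subunits, against 3.31% of all 35116 windows in the table and 4.72% of those of tested genes. EZH1 and AEBP2, which were not called, held the other two matches. CCAAT was found in 10 of the 15 windows, against 34.6% of all windows. The RBBP4 windows overlap and share a CCAAT match, so the 15 windows are not independent. G and C made up 74.7% (EZH2), 79.7% (PHF19), 73.0% (SUZ12) and 63.0% (MTF2) of the bases shown, against a median of 58.7% over all windows and 64.3% over those of tested genes, which MTF2 did not reach.

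Within a library, ratios between subunits are free of the scaling. EZH2 had 3.68, 3.59 and 3.70 counts per EZH1 count in the MEL-18 T334A libraries, 3.35, 3.36 and 3.25 in the MEL-18 WT libraries and 3.92, 3.99 and 3.89 with the vector, so that the 3 groups were separate. PHF19 had 1.47, 1.57 and 1.503 counts per MTF2 count with MEL-18 T334A, 1.11, 1.13 and 1.16 with MEL-18 WT and 1.36, 1.35 and 1.25 with the vector, again with no overlap. The log2 difference of the PHF19 to MTF2 ratio was 0.41 between MEL-18 T334A and MEL-18 WT. EZH2 counts per SUZ12 count averaged 0.648 ± 0.016 with MEL-18 T334A, 0.565 ± 0.018 with MEL-18 WT and 0.631 ± 0.016 with the vector (SD, n = 3). The MEL-18 WT libraries lay below the others, while MEL-18 T334A and the vector overlapped. RBBP7 to RBBP4, at 1.84 ± 0.03, 1.87 ± 0.06 and 1.88 ± 0.04, and JARID2 to AEBP2, at 0.845 ± 0.023, 0.847 ± 0.030 and 0.860 ± 0.011, overlapped in all groups. The exact two-sided permutation test over 3 against 3 libraries gave p = 0.1 for each pair of groups without overlap, the smallest it can give, and the Benjamini-Hochberg value over the 15 tests was 0.188.

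**Figure D3:**
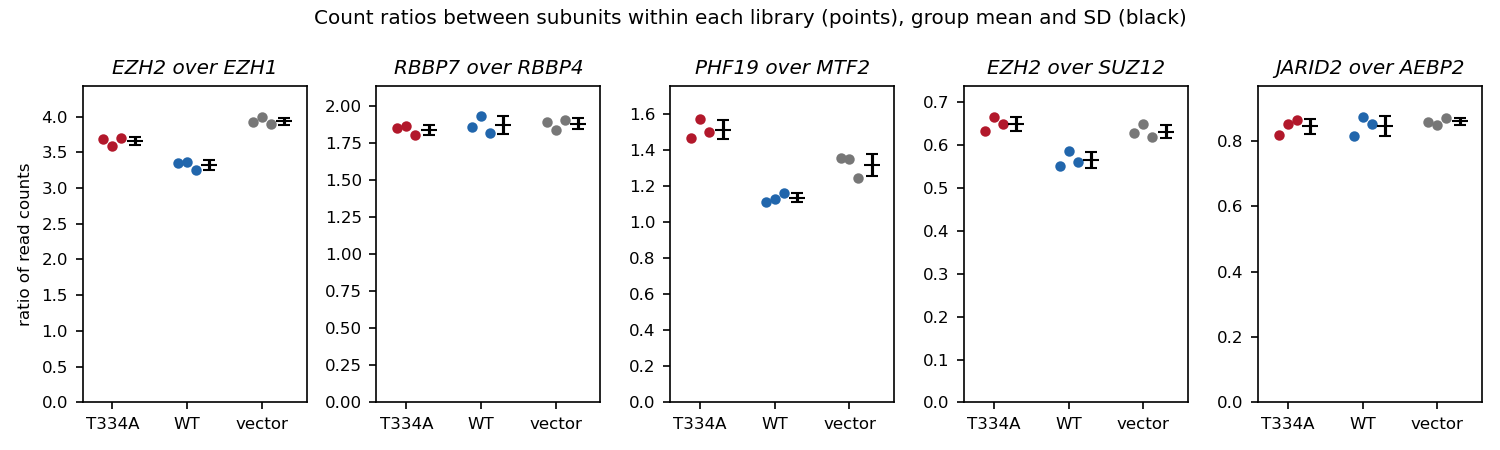
Ratio of read counts between pairs of subunits (vertical axes from 0) in the MEL-18 T334A, MEL-18 WT and vector libraries; points are libraries, black marks are group means with SD, n = 3. The PHF19 to MTF2 ratio is separate in all groups, while the JARID2 to AEBP2 ratio overlaps.

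Genes next to several of the subunits on the chromosome had median changes of the same sign. For each subunit the median log2 fold change of the 20 tested genes on each side was taken, with gene order from RefSeq. Around PHF19 on chromosome 9 it was 0.03 in MEL-18 T334A against the vector, -0.13 in MEL-18 WT against the vector and 0.18 in MEL-18 T334A against MEL-18 WT, so that PHF19 itself lay 0.05 above, 0.06 below and 0.10 above its neighbours. Around EZH2 on chromosome 7 the medians were 0.05, -0.10 and 0.12 in the same order. EZH2 thus lay below its neighbours in MEL-18 T334A against the vector by 0.15, with the opposite sign, below them by 0.08 in MEL-18 WT against the vector, and below them by 0.04 between the MEL-18 groups. Neighbours of SUZ12 on chromosome 17 stood at -0.04, 0.02 and -0.09, and those of MTF2 on chromosome 1 at -0.10, 0.02 and -0.07. Between the MEL-18 groups 9 of 10 subunits, and all 4 called, had the sign of their neighbours' median. Against the vector this was so for 7 of 10 in MEL-18 T334A, including 4 of 5 called, and for 6 of 10 in MEL-18 WT, including both called. Of all 14423 placed genes, 66.8% had the sign of their own neighbours' median between MEL-18 T334A and MEL-18 WT, 62.6% in MEL-18 T334A against the vector and 62.2% in MEL-18 WT against the vector. Among called genes the shares were 77.4%, 68.5% and 74.2% in these comparisons, so most tested genes shared the sign of their neighbours. Whether a regional shift takes part in the subunits' differences was not tested.

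**Figure D4:**
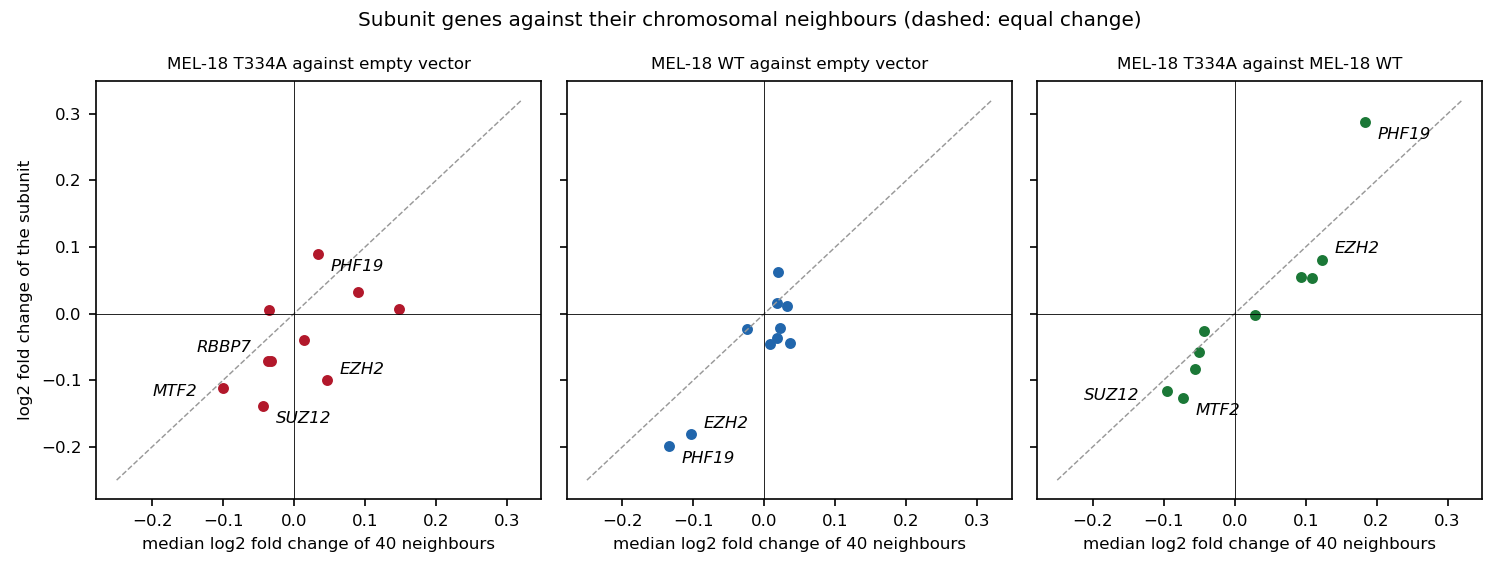
Log2 fold change of each subunit (vertical) against the median log2 fold change of its 40 nearest tested neighbours (horizontal) in the 3 comparisons, with called subunits named; the dashed line marks equal change. Between MEL-18 T334A and MEL-18 WT 9 of 10 points have the sign of their neighbours, with MTF2 lowest (-0.13 beside -0.07) and PHF19 highest (0.29 beside 0.18).

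Genes outside the 10 were most like EZH2 or PHF19, the subunit with the widest range of group means, by the root mean square difference of centred log2 CPM over the 9 libraries, among 11947 other genes with at least 2 CPM. For EZH2 the closest was MCM7, a subunit of the replicative helicase, at a difference of 0.016, against a median of 0.114 over all of them. MCM7 stood at 524, 492 and 549 CPM in the MEL-18 T334A, MEL-18 WT and vector groups. SF3B4, CPSF3, RPS12 and TMEM243 followed at 0.019 to 0.021, and MCM7 and TMEM243 lie on chromosome 7, as EZH2 does, but with 233 and 304 tested genes between. For PHF19 the closest were TRIM35, DENND1A, TMEM179B, SH3GLB2 and STARD3NL, at 0.024 to 0.030 against a median of 0.154. DENND1A and SH3GLB2 lie on chromosome 9, as PHF19 does, with 21 and 94 tested genes between.

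Other genes tied to PRC2 were looked up as lists. Of 5 further PRC2-linked factors, 4 were tested. C17orf96, now named EPOP, a PRC2.1 protein, was higher with both constructs, at 27.9 ± 0.47 CPM with MEL-18 T334A and 27.7 ± 1.54 CPM with MEL-18 WT, against 21.6 ± 1.58 CPM with the vector (log2 fold changes 0.37 and 0.36, edgeR adjusted p = 2.21e-06 and 5.31e-06). PHF1, the third Polycomb-like paralog, stood at 51.1 ± 1.82, 44.9 ± 1.35 and 47.7 ± 1.96 CPM in MEL-18 T334A, MEL-18 WT and vector cells, and was called higher in MEL-18 T334A than in MEL-18 WT (0.18, edgeR adjusted p = 4.36e-04) and than in the vector (0.10, edgeR adjusted p = 0.0420, with overlapping libraries). LCORL, whose locus encodes a PALI subunit of PRC2.1, was lower in MEL-18 T334A cells (log2 fold changes of -0.20 against MEL-18 WT and -0.27 against the vector), and its paralog LCOR was not called. CXorf67, now EZHIP, an inhibitor of PRC2, had 3 counts in all 9 libraries together. The median log2 fold change of the 4 was 0.05, 0.00 and -0.03 in MEL-18 T334A against the vector, MEL-18 WT against the vector and MEL-18 T334A against MEL-18 WT, beside -0.0022, -0.0017 and -0.0033 over all tested genes.

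Of the enzymes that remove the mark, KDM6A was lower in MEL-18 T334A, at 22.3 ± 1.04 CPM, than in MEL-18 WT, at 24.6 ± 1.57 CPM, or with the vector, at 26.6 ± 1.75 CPM (-0.14 and -0.26, edgeR adjusted p = 0.0370 and 3.52e-04). KDM6B, at 13.1 ± 0.92, 14.1 ± 0.71 and 13.9 ± 1.04 CPM, was not called.

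Partners of RBBP4 and RBBP7 in other complexes (20 genes, all tested) gave 3 higher and 8 lower calls with MEL-18 T334A against the vector, 1 and 5 with MEL-18 WT against the vector, and 2 and 5 between MEL-18 T334A and MEL-18 WT, with median log2 fold changes of -0.06, -0.04 and -0.03, beside -0.0022, -0.0017 and -0.0033 over all tested genes. The 11, 6 and 7 called of 20 stand beside 45.9%, 28.8% and 40.9% of all tested genes called in these comparisons, and lie near those shares. GATAD2B of NuRD was lower with both constructs, at 73.1 ± 2.61 and 72.5 ± 1.26 CPM with MEL-18 T334A and MEL-18 WT against 87.2 ± 2.38 CPM with the vector. SMARCA1, the NURF ATPase, was higher with both, by 0.20 and 0.29, and MBD2, a reader of DNA methylation in NuRD, was higher in MEL-18 T334A cells, by 0.17 over the vector and 0.19 over MEL-18 WT.

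E2F targets of S phase (22 genes, all tested) gave 4 higher and 11 lower calls with MEL-18 T334A against the vector, 0 and 3 with MEL-18 WT against the vector, and 3 and 8 between MEL-18 T334A and MEL-18 WT, with medians of -0.09, -0.04 and -0.04, beside -0.0022, -0.0017 and -0.0033 over all tested genes. Over all tested genes, higher calls made up 23.4% and lower calls 22.5% for MEL-18 T334A against the vector, 14.4% each way in MEL-18 WT against the vector, and 3090 and 2944 of the 14738 genes between MEL-18 T334A and MEL-18 WT. The 3 lower in MEL-18 WT were MCM7, RRM2 and TK1, at -0.16, -0.15 and -0.14. In MEL-18 T334A cells, POLA1, a DNA polymerase subunit, stood at -0.32 against each of the other groups, and RRM2, of ribonucleotide reductase, at -0.29 against the vector, while E2F1 was higher by 0.17 and TYMS by 0.22 against the vector. Between the MEL-18 groups, 8 of the 11 called list members were lower in MEL-18 T334A. The other 3, TYMS, E2F1 and MCM7, were higher there than in MEL-18 WT, by 0.20, 0.15 and 0.09. EZH2 was lower in MEL-18 WT, a call that DESeq2 did not make. TYMS, E2F1 and MCM7 were thus also lower in MEL-18 WT than in MEL-18 T334A. Of these 3, MCM7 had been picked for its likeness to EZH2 in these same libraries. The part of the cell cycle in the EZH2 values was not tested.

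Genes described as repressed by PRC2 in cancer cells formed a list of 20, of which 13 were tested. The other 7, CDKN2A, CDH1, RUNX3, CNR1, CCND2, GATA4 and WT1, had 5 to 32 counts over the 9 libraries. Among the 13 there were 8 higher and 2 lower calls with MEL-18 T334A against the vector, 6 and 4 in MEL-18 WT against the vector, and 3 and 3 between MEL-18 T334A and MEL-18 WT. Since low genes enter the test through the group where they are high, these counts describe the tested genes alone. Calls over all tested genes were 23.4% higher and 22.5% lower in MEL-18 T334A against the vector, 14.4% each way in MEL-18 WT against the vector, and 21.0% higher (3090 genes, with 2944 lower) between MEL-18 T334A and MEL-18 WT. The median log2 fold changes of the 13 were 0.23, 0.12 and 0.06, beside -0.0022, -0.0017 and -0.0033 over all tested genes. BMPR1B, a BMP receptor, stood at 7.71 ± 0.62 and 7.44 ± 0.26 CPM with MEL-18 T334A and MEL-18 WT against 4.07 ± 0.44 CPM with the vector, and VASH1, an inhibitor of vessel growth, at 9.76 ± 0.07 and 9.36 ± 0.34 against 5.64 ± 0.86 CPM. MYT1, a neural zinc finger factor, had 127, 52 and 24 counts over the MEL-18 T334A, MEL-18 WT and vector libraries. TIMP3, a metalloprotease inhibitor, was lower, at 71.1 ± 7.25 and 83.8 ± 5.01 CPM against 116.9 ± 6.71 CPM with the vector. SFRP1 was called lower in MEL-18 WT cells, with 15 counts against 38, but it had few counts in every library. The MEL-18 WT libraries held 3, 3 and 9 counts of it, and the vector libraries 13, 13 and 12. KLF2 was higher in MEL-18 T334A than in MEL-18 WT cells by 0.40 and SLIT2 stood at -0.30 in that comparison. Against the vector SLIT2 was called higher with both constructs, by 0.32 in MEL-18 T334A and by 0.61 in MEL-18 WT cells. The histone mark itself was not measured, and the lists are of genes described elsewhere, not of sites found in these cells.

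**Figure D5:**
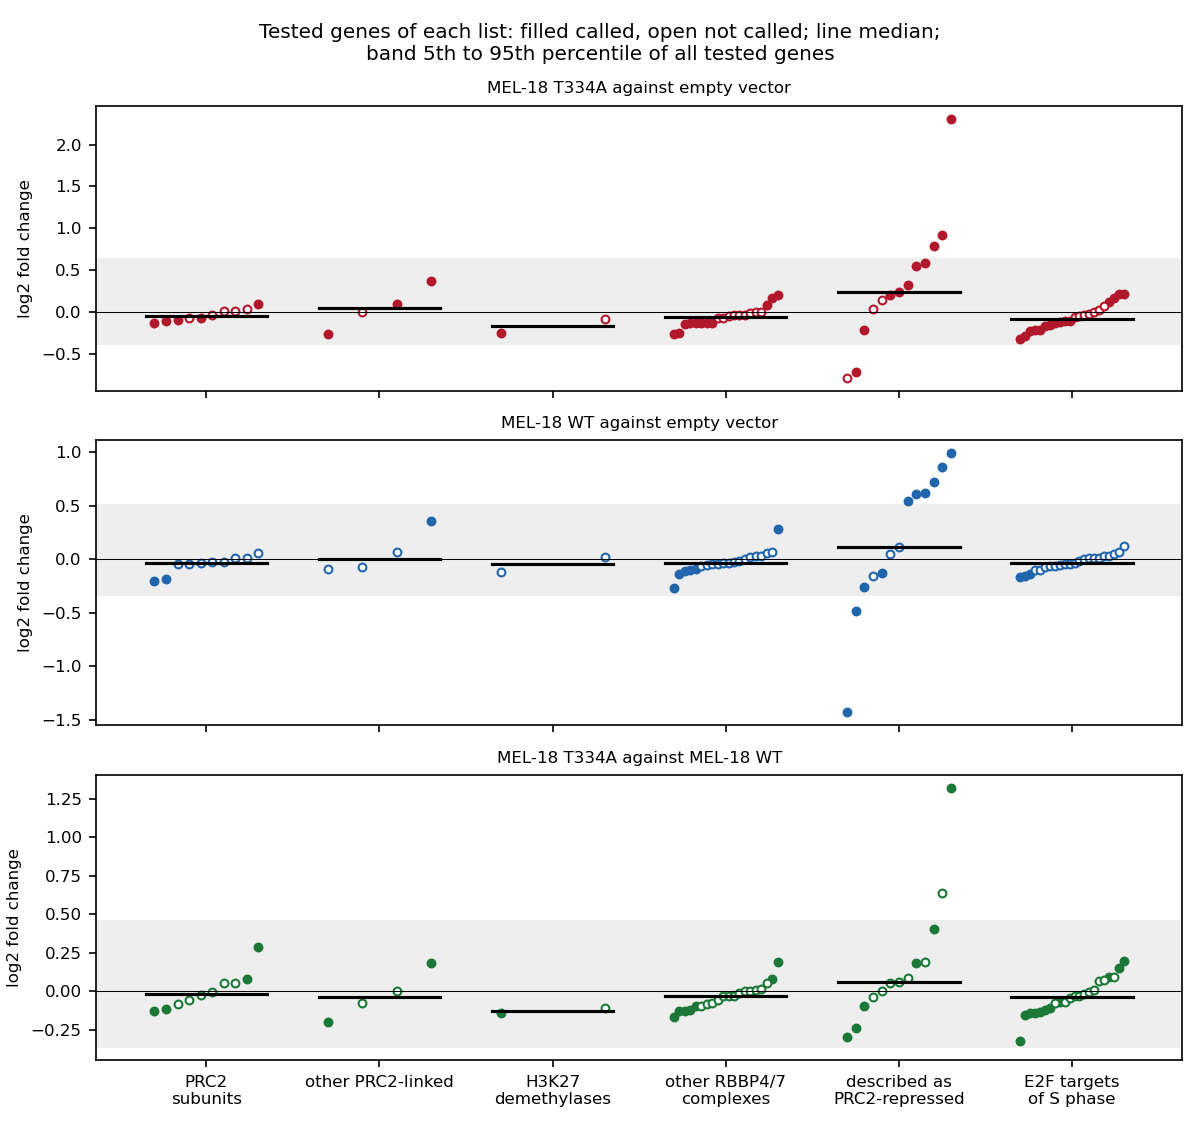
Log2 fold change (vertical) of the tested genes of each list in the 3 comparisons; filled points were called, black lines are list medians and the grey band leaves out the 5% of all tested genes at either end. PRC2 subunits lie within the band in all 3 comparisons, and MYT1 is the highest point of the genes described as PRC2-repressed in each.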

How the data were processed

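Poly(A) RNA of 9 cultures was sequenced from stranded libraries, per the labels' protocols. The authors deposited raw whole-number counts per gene symbol, 1 library a file, with no normalization. CASAVA 1.8, STAR 2.5.3a, featureCounts of Subread 1.5.3 and hg19 are named in the submitters' processing notes. Which annotation was used, whether counting used strand and how reads with several positions were treated: not given in the sources used here.

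Genes passing filterByExpr (14738 of 26364) were fitted with edgeR 4.0.16 in R 4.3.3, with TMM factors of 0.979 to 1.02, 1 mean per group over all 9 libraries, and quasi-likelihood F tests, two-sided and adjusted by Benjamini-Hochberg over all tested genes. The SE was taken as the size of the log2 fold change divided by the root of F. Intervals cover 95%. The fit was also run on simulated counts. Few genes were changed there, and by more than most subunits changed, so that run does not test the subunits' calls. Replicates of a group differed by more than sampling noise, at a chi-square of 1.38 to 3.26 for each degree of freedom. Alternatives were DESeq2 1.42.0, limma 3.58.1 voom, other scalings and filters, a replicate block, the compared groups alone and the removal of each library. All 10 subunits are named, and from other lists up to 4 called genes with the largest changes per comparison, of which the text gives a part. Some genes were chosen from the lists after their values were seen. The members and lists were chosen with earlier results of these data known. Gene order came from RefSeq (14423 of 14738 tested genes placed), exon lengths from GENCODE release 29 and promoter sequences from RefSeq, GRCh38.p14.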

Additional observations from a re-analysis of the deposited data

How the results depend on the processing

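The 10 subunits in 3 comparisons gave 30 log2 fold changes and 420 values under alternatives, of which 387 kept direction and side of the threshold, 22 lost their call, 1 gained one and 10 changed sign. With library totals alone, 2 subunits were called in MEL-18 T334A against the vector in place of 5, and without each library in turn 2 to 5 were called. The median of all genes moved by 0.04 under library totals in that comparison. Sign changes were seen only for values near 0 that were not called. RBBP4 between MEL-18 T334A and MEL-18 WT stood at 0.0156 with library totals and at 1.75e-04 with the compared groups alone, and at -0.0266 to 0.0154 without each library. Without each library, EED and MTF2 in MEL-18 WT against the vector ran from -0.0118 to 0.0577 and from -0.00134 to 0.0435, and EZH1 and JARID2 in MEL-18 T334A against the vector from -0.00704 to 0.0279 and from -0.0154 to 0.0386. The causes were not tested.

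The labels number the replicates alike in each group, but deviations of same-numbered libraries correlated at -0.08 to 0.01, so the numbers were not taken as pairs. With the number as a block, 4 subunits were called in MEL-18 T334A against the vector, 2 in MEL-18 WT against the vector and 3 between the MEL-18 groups, and the calls of RBBP7 (adjusted p = 0.0569) and of EZH2 between the MEL-18 groups (adjusted p = 0.0573) were lost, with no other change of a subunit's call. Each of the 10 subunits had at least 1032 counts per library. In MEL-18 T334A against the vector, RBBP7 and EED both stood at -0.07, with SEs of 0.03 and 0.04. Only RBBP7, which had more counts than EED, was called. The part of depth in the calls was not tested.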
